A study of Mus musculus with 12 samples.

Results

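The genes described are 10 components of the circadian clock, the transcriptional loop that gives cells a daily rhythm. They were taken from the count table by their Ensembl identifiers, through the mouse symbols Clock, Arntl (also named Bmal1), Per1, Per2, Per3, Cry1, Cry2, Nr1d1, Nr1d2 and Dbp. All 10 were found among the 56748 genes of the table, and all 10 passed the filter on low counts that left 17995 genes to test. Their raw counts per library ran between 285 and 2938. The set was selected on results of these libraries that were already known, among them a higher level of Per1 in exposed than in unexposed wildtype. For that comparison the values of all 10 genes are therefore given as a description, with no p-value, and nothing is supported with them. The effect of exposure averaged over both genotypes contains the same wildtype libraries, so for the 10 genes it too is given as a description, with no p-value.

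Messenger and other RNA was sequenced from mouse brain, which the series describes as adult forebrain, in 12 libraries of 4 groups with 3 libraries each. The groups were Notch conditional knockout after prenatal valproic acid (exposed knockout), the same knockout with no treatment label (unexposed knockout), wildtype after prenatal valproic acid (exposed wildtype) and wildtype with no treatment label (unexposed wildtype). The knockout carries the genotype label htr3a Notch KO. Valproic acid is an antiepileptic drug that also inhibits histone deacetylases, and exposure before birth is used in rodents to model autism. Which Notch gene was deleted, what drove the deletion, the dose, the day of exposure, the animals' exact ages and the hour at which tissue was taken are all not stated in the labels used here. Clock genes change level over the day, so these levels cannot be placed within a cycle. The labels do not say that each library came from its own animal, so p-values measure only the spread between these libraries.

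In the mouse, the proteins CLOCK and BMAL1 bind together to E-box sequences and switch on the Per and Cry genes, whose products then inhibit that pair. The same pair drives Nr1d1 and Nr1d2, which encode REV-ERB repressors that act back on Arntl, and Dbp, a transcription factor that carries the rhythm to output genes. In the brain the master clock sits in the suprachiasmatic nucleus of the hypothalamus, while cortex, striatum and choroid plexus hold clocks of their own. Per1 can also be induced through cAMP response elements by neuronal activity and by the glucocorticoid receptor.

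The promoters of Per1, Nr1d1, Nr1d2 and Cry1 are shown because these 4 genes were the ones whose exposed and unexposed libraries did not overlap in either genotype (values below). The sequences come from RefSeq on build GRCm38.p6, not the build of the counts, and each runs 5′ to 3′ from 250 bases before a transcription start to 50 bases after it. Capitals mark matches on either strand to the E-box CACGTG, its variant CACGTT, the core of a cAMP response element (TGACG), the D-box TTATGTAA bound by DBP, and the nuclear receptor site AGGTCA bound by REV-ERB and ROR proteins.
Per1, upstream start, chr11:69098699-69098998, + strand: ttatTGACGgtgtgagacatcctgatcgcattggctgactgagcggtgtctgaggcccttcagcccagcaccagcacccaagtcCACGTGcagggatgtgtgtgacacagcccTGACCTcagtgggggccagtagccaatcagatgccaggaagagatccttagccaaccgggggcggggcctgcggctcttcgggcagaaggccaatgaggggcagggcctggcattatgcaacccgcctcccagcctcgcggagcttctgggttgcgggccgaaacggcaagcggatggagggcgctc
Per1, downstream start, chr11:69099902-69100201, + strand: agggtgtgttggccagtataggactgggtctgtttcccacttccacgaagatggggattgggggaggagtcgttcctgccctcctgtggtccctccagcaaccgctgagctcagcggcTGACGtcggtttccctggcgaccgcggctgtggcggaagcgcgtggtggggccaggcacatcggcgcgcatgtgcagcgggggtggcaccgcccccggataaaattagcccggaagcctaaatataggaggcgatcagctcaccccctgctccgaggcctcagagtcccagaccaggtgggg
Nr1d1, chr11:98775328-98775627, - strand: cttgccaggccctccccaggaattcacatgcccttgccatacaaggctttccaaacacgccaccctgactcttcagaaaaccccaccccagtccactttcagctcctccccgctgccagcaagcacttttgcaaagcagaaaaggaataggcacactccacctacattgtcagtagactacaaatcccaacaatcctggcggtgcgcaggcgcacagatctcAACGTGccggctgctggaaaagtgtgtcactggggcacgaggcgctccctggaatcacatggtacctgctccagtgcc
Nr1d2, chr14:18239057-18239356, - strand: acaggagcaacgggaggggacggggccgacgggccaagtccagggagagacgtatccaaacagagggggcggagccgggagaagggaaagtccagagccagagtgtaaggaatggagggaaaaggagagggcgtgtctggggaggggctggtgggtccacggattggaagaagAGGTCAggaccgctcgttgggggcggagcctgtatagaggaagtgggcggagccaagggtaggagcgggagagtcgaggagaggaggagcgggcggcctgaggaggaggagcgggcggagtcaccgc
Cry1, chr10:85185005-85185304, - strand: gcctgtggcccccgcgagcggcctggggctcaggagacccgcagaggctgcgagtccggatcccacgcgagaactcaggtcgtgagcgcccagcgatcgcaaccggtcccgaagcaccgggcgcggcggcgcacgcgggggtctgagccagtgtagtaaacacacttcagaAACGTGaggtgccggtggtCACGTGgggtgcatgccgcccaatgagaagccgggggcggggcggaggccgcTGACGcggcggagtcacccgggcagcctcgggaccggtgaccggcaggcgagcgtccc
The E-box stood at position -166 from the upstream start of Per1 and at position -60 of Cry1, and 7.15% of 32851 promoter windows hold one. Nr1d1 held the variant CACGTT at position -28, Cry1 held it at position -79, and 4.685% of windows do. TGACG stood at positions -246 and -132 of the upstream and downstream Per1 windows and at position -8 of Cry1, a motif found in 20.8% of windows. AGGTCA stood at position -77 of Nr1d2 and at position -137 of the upstream Per1 window, and 16.3% of windows hold it. None of these 5 windows held the D-box, which stood at positions -205 and -158 of Per3 and is found in 0.938% of windows. No overlap between motifs occurred in the windows shown. Of the 10 genes, 9 had at least 1 window in the table, 13 in all; Per2 had none. A match in a window is a description of its letters and says nothing of binding in these samples.

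Levels of the genes were first compared with each other per length, as CPM (read counts scaled for library size and composition) divided by the kilobases of each gene's exons. Nr1d1 and Dbp stood highest, at 25.2 ± 2.47 and 25.2 ± 1.53 CPM per kilobase (mean ± SD over 12 libraries). Nr1d2 followed at 18.8 ± 1.65, Cry2 at 17.0 ± 1.08 and Per1 at 13.5 ± 2.09 CPM per kilobase. The other 5 genes were lower, with Cry1 at 5.33 ± 0.581, Per2 at 5.06 ± 0.592, Clock at 3.64 ± 0.185, Per3 at 3.34 ± 0.401 and Arntl at 2.37 ± 0.207 CPM per kilobase. In this order the libraries of 2 neighbouring pairs did not overlap: Dbp lay above Nr1d2 (lowest 22.2 against highest 21.5), and Per1 lay above Cry1 (lowest 9.71 against highest 6.49). All other neighbours overlapped. The activators Clock and Arntl were thus both in the lower 5, and Arntl was the least abundant per length.

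**Figure D1:**
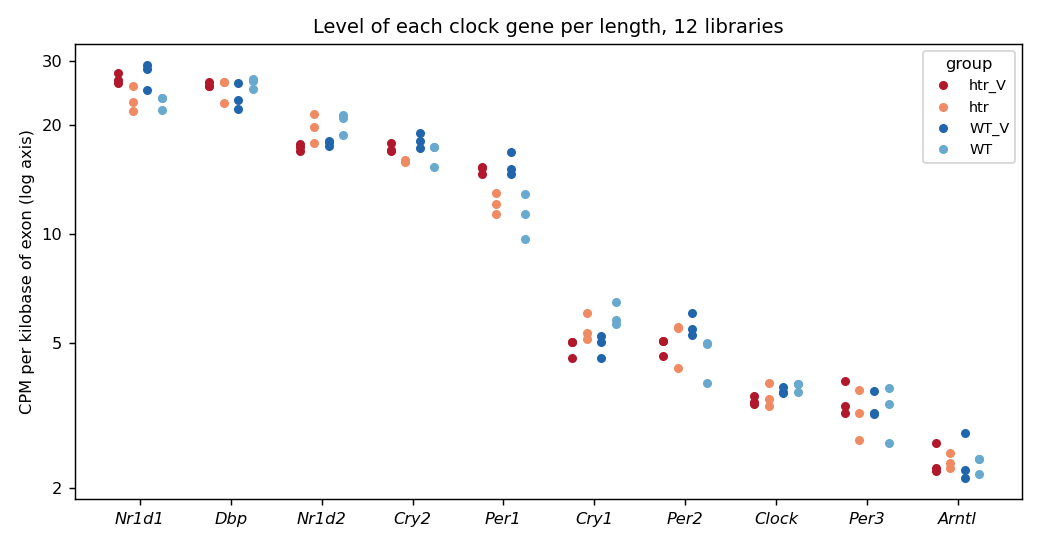
Level of each clock gene in CPM per kilobase of exon (log axis) in all 12 libraries, coloured by group, with genes ordered by their mean. Nr1d1, Dbp, Nr1d2, Cry2 and Per1 all lie above 9 CPM per kilobase and the other 5 genes all lie below 7.

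The libraries hold forebrain: all 6 forebrain markers passed the low-count filter, with summed levels of 236 to 248 CPM, while 2 of 8 hindbrain and cerebellar markers passed, with sums of 0.568 to 1.76 CPM and Hoxb3 and Hoxb5 at 0 counts throughout. Markers of the suprachiasmatic nucleus were low, with 7 of 10 past the filter and sums of 74.1 to 154 CPM over all libraries; Nms, Six6 and Lhx1 did not pass. Exposed wildtype replicate 3 and exposed knockout replicate 3 had 12 and 6 counts of Xist, the RNA of the inactive X chromosome, against 5919 to 10767 in the other libraries, so values of the clock genes and of the other lists that rest on them are also given without both. Totals ran between 16887885 and 24944681 counts per library.

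Whether prenatal valproic acid left the adult clock genes at another level was compared in the knockout, in wildtype and as the average of both. Per1 was higher and Nr1d2 was lower in every exposed library than in every unexposed library of the same genotype, and the same held for Nr1d1 (higher) and Cry1 (lower). These 4 of 10 genes did not overlap in the same direction in both genotypes, where 4.87% of all 17995 tested genes did so. Because the wildtype values were used in choosing the genes, nothing is read from that count. The activators Clock and Arntl and the output gene Dbp showed no such separation in either genotype. In the knockout none of the 10 passed the test, and whether its libraries also entered that choice is not known.

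Per1, a period gene that also responds to external signals, stood at 85.6, 86.0 and 82.2 CPM in exposed knockout, against 68.3, 73.1 and 64.0 CPM in unexposed knockout. It stood at 84.9, 94.8 and 82.35 CPM in exposed wildtype, against 72.6, 63.9 and 54.7 CPM in unexposed wildtype. All 6 exposed libraries thus lay above all 6 unexposed libraries, and Per1 was the only 1 of the 10 genes with such a gap; 3.14% of tested genes had one in either direction. The fold was 1.23 in the knockout (log2 0.30 ± 0.08 SE, edgeR adjusted p = 0.118) and 1.37 in wildtype (log2 0.45 ± 0.08 SE). The 95% interval in the knockout was 0.13 to 0.48 on the log2 scale. The averaged fold was 1.30 (log2 0.38 ± 0.06 SE). With both libraries lacking Xist left out, Per1 was at log2 0.32 in the knockout (edgeR adjusted p = 0.156) and 0.41 on average.

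Nr1d1, which encodes REV-ERBα, stood at 81.5, 85.2 and 80.2 CPM in exposed knockout, against 78.6, 71.1 and 67.3 CPM in unexposed knockout. In wildtype the libraries were at 90.1, 87.8 and 76.9 CPM after exposure, against 72.9, 67.5 and 72.8 CPM in unexposed wildtype. The groups did not overlap within a genotype, but exposed wildtype replicate 3 lay below unexposed knockout replicate 1. The fold was 1.14 in the knockout (log2 0.18 ± 0.07 SE, edgeR adjusted p = 0.229), 1.195 in wildtype (log2 0.26 ± 0.07 SE) and 1.17 on average (log2 0.22 ± 0.05 SE). When both libraries lacking Xist were left out, Nr1d1 was at log2 0.20 in the knockout (edgeR adjusted p = 0.266) and 0.26 on average. Exons of Nr1d1 and of the thyroid hormone receptor gene Thra on the opposite strand share 263 bases, 8.55% of the Nr1d1 exon length, and whether counting used strand was not stated. Reads of that stretch cannot be assigned, and Thra had 913 to 1088 CPM in exposed and 894.5 to 984 CPM in unexposed libraries (averaged log2 0.10 ± 0.05 SE, edgeR adjusted p = 0.312). The part of those reads in the Nr1d1 values was not tested.

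Nr1d2, which encodes REV-ERBβ, had the opposite sign to its paralogue. It stood at 91.6, 95.7 and 93.7 CPM in exposed knockout, against 96.3, 116 and 106.5 CPM in unexposed knockout, and at 97.5, 96.9 and 94.4 CPM in exposed wildtype, against 102, 115 and 113 CPM in unexposed wildtype. The exposed libraries lay close together and the unexposed ones were spread more widely above them (SD 2.03 and 1.62 CPM in exposed knockout and wildtype, against 9.88 and 7.42 CPM in the unexposed groups). The log2 fold change was -0.18 ± 0.07 SE in the knockout (edgeR adjusted p = 0.219), -0.19 ± 0.07 SE in wildtype and -0.19 ± 0.05 SE on average. Without both libraries lacking Xist, Nr1d2 was at log2 -0.19 in the knockout (edgeR adjusted p = 0.31) and -0.18 on average. No other gene shares exon bases with Nr1d2 in the annotation used.

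Cry1, a strong repressor of the CLOCK and BMAL1 pair, stood at 16.8, 15.2 and 16.8 CPM in exposed knockout, against 17.15, 17.8 and 20.2 CPM in unexposed knockout. It stood at 16.8, 17.5 and 15.2 CPM in exposed wildtype, against 18.8, 21.7 and 19.4 CPM in unexposed wildtype. The gap was narrow in the knockout, where the highest exposed and the lowest unexposed library were 16.84 and 17.15 CPM. Cry1 was at log2 -0.17 ± 0.10 SE in the knockout (edgeR adjusted p = 0.435), -0.27 ± 0.10 SE in wildtype and -0.22 ± 0.07 SE on average. With both libraries lacking Xist left out, Cry1 was at log2 -0.21 in the knockout (edgeR adjusted p = 0.442) and on average. Cry2, its paralogue, had the opposite sign, at 106.9, 107.5 and 112.7 CPM in exposed knockout against 100.1, 100.6 and 101.0 CPM in unexposed knockout. In wildtype Cry2 was at 114.1, 120.2 and 109.1 CPM after exposure, against 109.7, 109.6 and 96.5 CPM without, and these groups overlapped. The log2 fold change of Cry2 was 0.12 ± 0.07 SE in the knockout (edgeR adjusted p = 0.421) and 0.12 ± 0.05 SE on average.

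Per2, the second period gene, was at 29.7, 27.1 and 29.6 CPM in exposed knockout, against 25.0, 32.5 and 32.3 CPM in unexposed knockout. It was at 32.1, 35.4 and 30.9 CPM in exposed wildtype, against 29.1, 29.35 and 22.7 CPM in unexposed wildtype. The wildtype groups did not overlap and the knockout groups did. The log2 fold change was -0.05 ± 0.11 SE in the knockout (edgeR adjusted p = 0.861) and 0.28 ± 0.10 SE in wildtype. The difference between those effects was -0.33 ± 0.15 SE, with an edgeR adjusted p of 0.833 for the interaction (unadjusted p = 0.0346), so a difference between the genotypes was not shown.

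Per3, Clock, Arntl and Dbp gave no separation by exposure in either genotype. Per3, the period gene least needed for the rhythm in mice, ranged over 30.9 to 38.0 CPM in exposed and 26.0 to 35.8 CPM in unexposed knockout, and over 30.6 to 35.4 CPM in exposed and 25.55 to 36.25 CPM in unexposed wildtype. Clock ranged over 46.75 to 49.0 CPM and 46.15 to 53.3 CPM in exposed and unexposed knockout, and over 50.2 to 52.1 CPM and 50.3 to 53.15 CPM in exposed and unexposed wildtype. Arntl averaged 17.9 ± 1.805 CPM in exposed and 17.8 ± 0.902 CPM in unexposed knockout, and 18.1 ± 2.85 CPM in exposed and 17.5 ± 0.902 CPM in unexposed wildtype (SD, n = 3 each). Their log2 fold changes in the knockout were 0.12 for Per3 (95% interval -0.15 to 0.40), -0.05 for Clock (-0.19 to 0.10) and 0.01 for Arntl (-0.22 to 0.24). Changes within these intervals are not excluded by the fit.

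Dbp was at 78.5, 76.4 and 76.6 CPM in exposed knockout, against 78.7, 78.4 and 68.75 CPM in unexposed knockout. It was at 66.3, 78.2 and 69.9 CPM in exposed wildtype, against 79.9, 79.0 and 75.3 CPM in unexposed wildtype, and 1 exposed library lay within the unexposed range. The log2 fold change was 0.03 ± 0.07 SE in the knockout (edgeR adjusted p = 0.871) and -0.05 ± 0.05 SE on average. Dbp shares 539 exon bases (18%) with the sphingosine kinase gene Sphk2 on the other strand. Sphk2 was at 18.7 to 22.9 CPM in exposed and 17.5 to 20.3 CPM in unexposed libraries, and the part of its reads in the Dbp values was not tested.

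**Figure D2:**
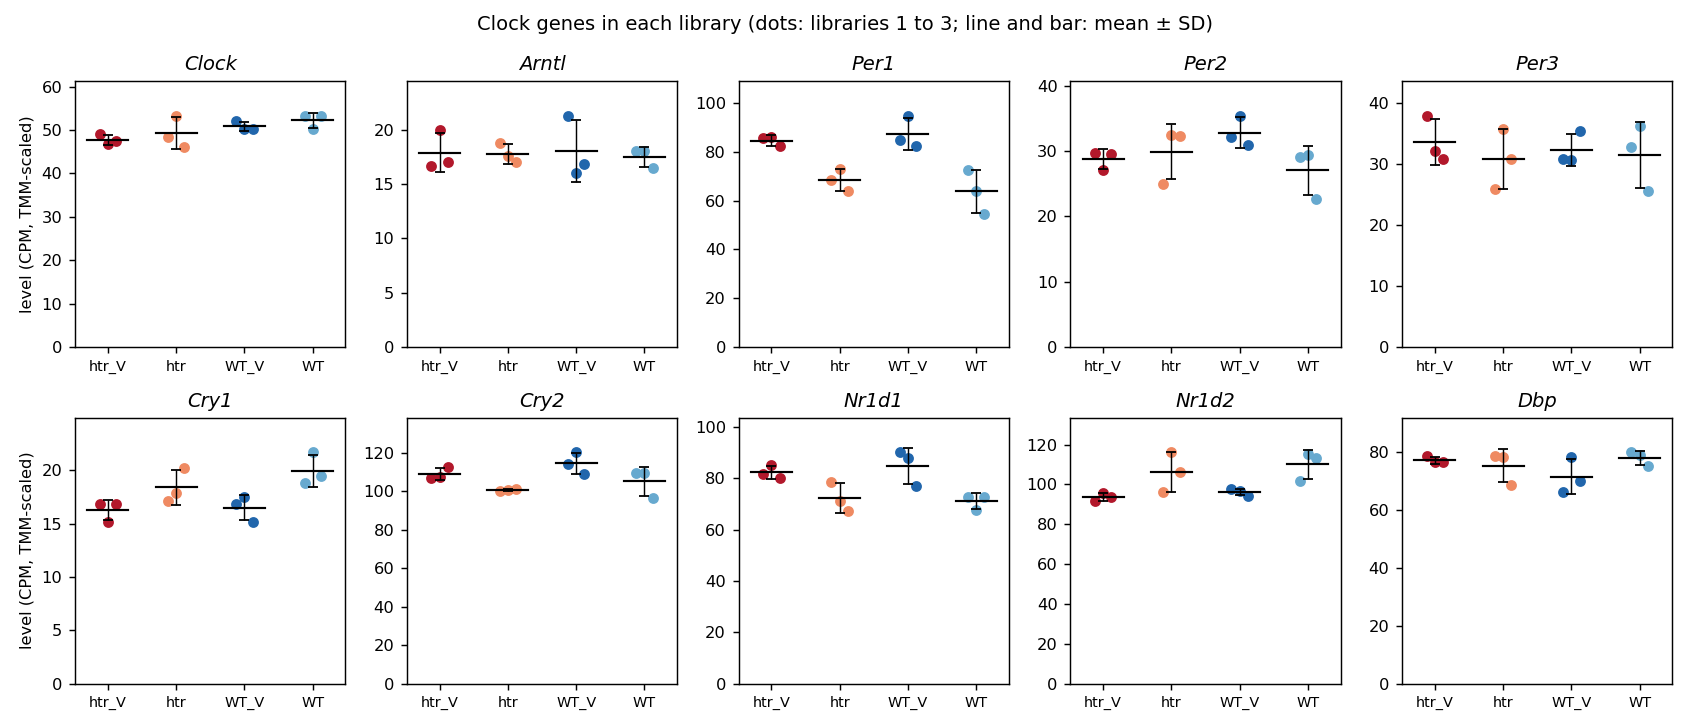
CPM of each clock gene (y axis, starting at 0) in the 3 libraries of exposed knockout (htr_V), unexposed knockout (htr), exposed wildtype (WT_V) and unexposed wildtype (WT), with the mean and SD. Per1 lies at 82.2 CPM or more in all exposed libraries and at 73.1 CPM or less in all unexposed ones, while Arntl and Clock overlap in both genotypes.

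In the knockout 0 of 10 clock genes passed edgeR's quasi-likelihood test (Benjamini-Hochberg adjusted over all 17995 genes), where 0.0556% of tested genes did (0.0167% higher and 0.0389% lower), and DESeq2's Wald test also called 0. Per1, Nr1d1 and Nr1d2 had an unadjusted p under 0.05 there, as did 14.9% of all tested genes. In that genotype 5 of 10 genes did not overlap between groups, where 20.2% of tested genes did not. In wildtype 1 of 10 passed (Per1), where 0.895% of tested genes did (0.206% higher and 0.689% lower), and 5 of 10 did not overlap, where 20.8% did not; since Per1 was known beforehand, nothing is read from these counts. Without wildtype replicate 2, wildtype replicate 3 or exposed wildtype replicate 2, 0 of 10 passed there, with Per1 at log2 0.46, 0.35 and 0.39.

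In the averaged effect 3 of 10 had an adjusted p under the threshold, Per1 and Nr1d1 higher and Nr1d2 lower, where 5.99% of tested genes did (2.12% higher and 3.87% lower). This average contains the wildtype libraries used in choosing the genes, so nothing is read from the count. With 1 library left out, averaged log2 values spanned 0.329 to 0.433 for Per1 and 0.194 to 0.253 for Nr1d1. Nr1d1 was not counted without unexposed knockout replicate 3. Nr1d2 was not counted without unexposed wildtype replicate 2 or 3, unexposed knockout replicate 2 or 3, exposed wildtype replicate 3, exposed knockout replicate 1 or 3, or both libraries lacking Xist. With 1 library left out, its averaged log2 fold change ranged between -0.221 and -0.153. The median log2 fold change of the 10 genes was 0.05 in the average, beside 0.01 over all tested genes, and 6 had positive and 4 negative values.

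**Figure D3:**
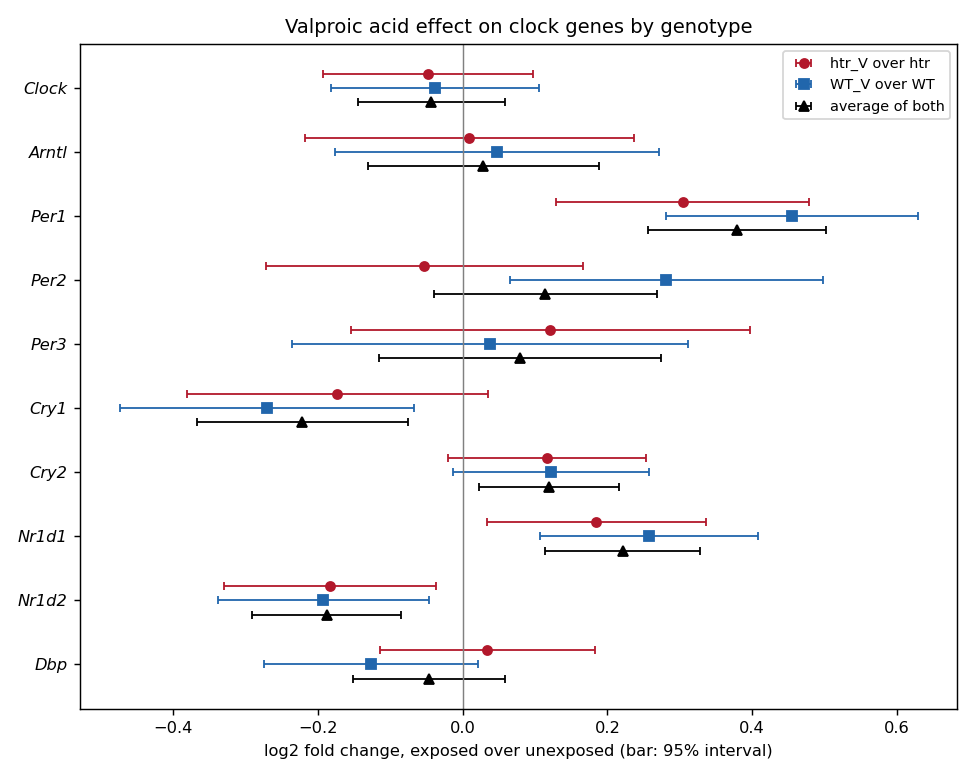
Log2 fold change of exposed over unexposed libraries with its 95% interval for each clock gene, in knockout (circles), wildtype (squares) and as the average (triangles). In the knockout the values of Per1 and Nr1d1 lie at 0.30 and 0.18, that of Nr1d2 at -0.18 and those of Clock and Arntl at -0.05 and 0.01, and none of the 10 passed the adjusted test there; the wildtype and averaged values are a description.

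The other genes of the clock were read from lists of partners and outputs. Of 18 partners, kinases and ubiquitin ligases, 0 passed in the knockout, in wildtype or on average (median log2 0.00, 0.05 and 0.04; edgeR). The highest of these by level were Huwe1, Fbxw11, Gsk3b and the casein kinase gene Csnk1d, which phosphorylates PER proteins, with averaged log2 values of 0.08, -0.03, -0.10 and 0.07. Of 14 output genes, 0 passed in the knockout, 1 rose in wildtype and 2 fell on average (medians -0.03, -0.04 and -0.03). Of all tested genes, 0.0556% passed in the knockout, 0.206% rose in wildtype and 3.87% fell on average. The output gene that rose in wildtype was Bhlhe40, a repressor that competes for E-boxes (log2 0.40 ± 0.09 SE, and 0.02 ± 0.09 SE in the knockout). Its interaction was -0.38 ± 0.13 SE (edgeR adjusted p = 0.833), so a difference between the genotypes was not shown. Bhlhe40 was at log2 0.52 in wildtype without both libraries lacking Xist. On average Nampt, the rate-limiting enzyme of NAD salvage, fell (log2 -0.21 ± 0.05 SE, edgeR adjusted p = 0.0132), as did the zinc finger gene Klf9 (log2 -0.17 ± 0.05 SE, adjusted p = 0.0375). When both libraries lacking Xist were left out, Nampt (log2 -0.21, adjusted p = 0.0594 by edgeR) and Klf9 (log2 -0.17, adjusted p = 0.103) no longer passed. In that setting 1 of the 14 output genes rose and 0 fell on average. Tef and Hlf, the nearest relatives of Dbp, were at averaged log2 -0.02 and 0.06.

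Genes induced by activity or glucocorticoids, and markers of regions that a dissection could hold, were read in the same libraries. Over all tested genes, 0.0556% passed in the knockout, 0.895% in wildtype and 5.99% on average (2.12% higher and 3.87% lower). Activity-induced genes had summed levels of 758 to 1039 CPM in exposed and 689 to 792 CPM in unexposed knockout, and of 698 to 1038 CPM in exposed and 568 to 867 CPM in unexposed wildtype. Of these 16 genes, 14 were higher in the knockout and 15 in wildtype (median log2 0.24 and 0.41, beside 0.01 over all tested genes in each). In either genotype 0 passed, and Fos (log2 0.68 ± 0.14 SE, edgeR adjusted p = 0.0132) and Egr4 (log2 0.38 ± 0.08 SE, adjusted p = 0.0143) rose on average. The lowest exposed library of each genotype in that sum was replicate 3, the one lacking Xist. In unexposed wildtype the sums were 867, 613 and 568 CPM in replicates 1 to 3, and in unexposed knockout replicate 3 was highest at 792 CPM. Whether Per1 levels follow this sum was not tested. Without both libraries lacking Xist, the exposed sums were 987 to 1039 CPM in the knockout and 988 to 1038 CPM in wildtype. In that setting 1 of the 16 genes passed in the knockout, 2 in wildtype and 4 on average, all higher, with Fos at log2 0.84 (edgeR adjusted p = 0.000154) and Egr4 at 0.47 (adjusted p = 0.00361) on average. Of 15 glucocorticoid-induced genes, 3 rose on average (Ddit4, Nfkbia and Zbtb16) and 1 fell (Klf9). Their summed levels were 1098 to 1226 CPM in exposed and 1062 to 1172 CPM in unexposed knockout. In wildtype they were 1002 to 1150 CPM in exposed and 973 to 1035 CPM in unexposed libraries. Leaving out both libraries lacking Xist gave exposed sums of 1110 to 1226 CPM in the knockout and 1002 to 1005 CPM in wildtype. With both libraries lacking Xist left out, 2 of the 15 rose and 1 fell on average. Ddit4 still passed there (log2 0.25, edgeR adjusted p = 0.0375) and Nfkbia, Zbtb16 and Klf9 did not (adjusted p = 0.0916, 0.0928 and 0.103). The others past the test there had not passed with all 12 libraries. Zbtb16 was also higher in knockout than in wildtype, at log2 0.75 without exposure and 0.80 after it (edgeR adjusted p = 0.000977 and 0.000369), against 0.30 for exposure on average.

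Striatal projection neuron markers had sums of 1276 to 1553 CPM in exposed and 1409 to 2157 CPM in unexposed knockout, and of 1177 to 1330 CPM in exposed and 1864 to 1955 CPM in unexposed wildtype. On average 5 of 10 fell, where 3.87% of tested genes did. When both libraries lacking Xist were left out, 3 of those 10 fell (Tac1, Drd1 and Pde10a), with exposed sums of 1276 to 1480 CPM in the knockout and 1177 to 1330 CPM in wildtype. Choroid plexus markers had sums of 3453 to 4195 CPM in exposed and 2473 to 2604 CPM in unexposed knockout, and of 1797 to 3504 CPM in exposed and 1814 to 2788 CPM in unexposed wildtype. Averaged values were positive for 12 of 12 markers. In the knockout 12 were higher (median log2 0.62), while in wildtype 6 were higher and 6 lower (median 0.06). In the knockout, in wildtype and on average 0 passed the test. Without both libraries lacking Xist, the choroid plexus sums were 3908 to 4195 CPM in exposed knockout and 1797 to 2368 CPM in exposed wildtype. In that setting 12 of 12 were higher in the knockout and 0 of 12 in wildtype (median log2 0.65 and -0.22). Pineal markers were near the floor, with 5 of 9 past the filter, Gngt1 at 0 counts throughout, and sums of 6.60 to 9.88 CPM in exposed knockout, against 3.71 to 3.96 CPM in unexposed knockout. Of the 5 tested, Rbp3, at a mean of 0.468 CPM, rose in the knockout and on average, as did 0.0167% and 2.12% of all tested genes. Without both libraries lacking Xist, 2 of the 5 rose in the knockout, Rbp3 among them (edgeR adjusted p = 0.00225). On average 0 rose in that setting, with Rbp3 at an edgeR adjusted p of 0.0836. Wildtype had pineal sums of 3.89 to 4.54 CPM after exposure and 3.53 to 5.43 CPM without. The part of any of these lists in the clock gene values was not tested. In bulk tissue, fewer cells of a type and less RNA per cell cannot be told apart.

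**Figure D4:**
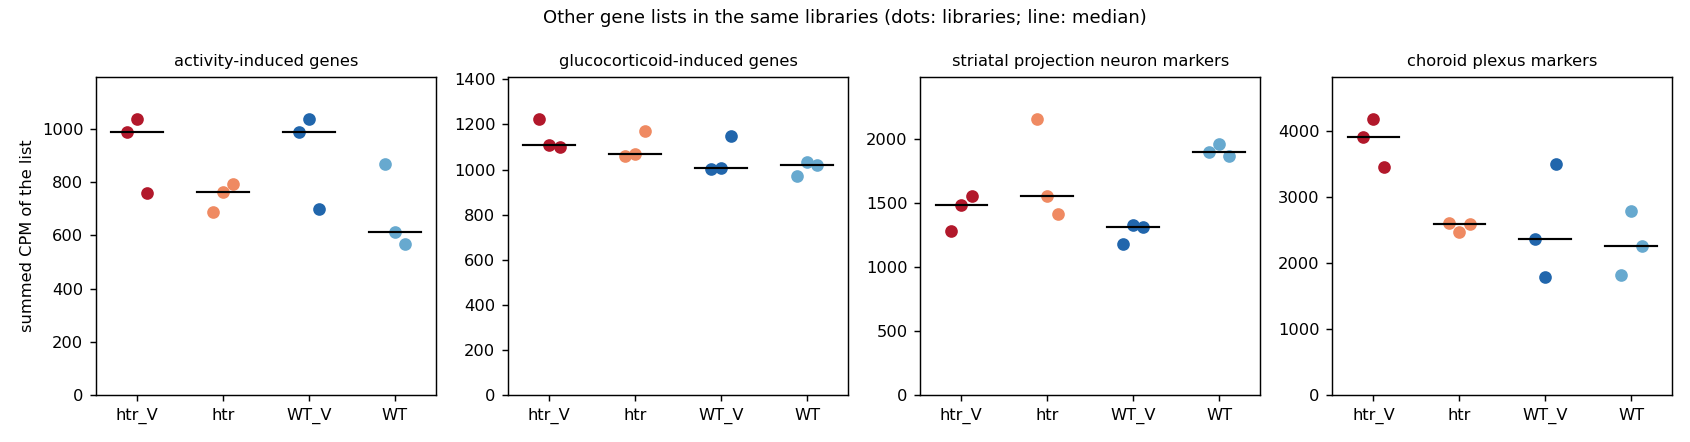
Summed CPM of 4 other gene lists in each library (dots) with the group median (line), in exposed knockout (htr_V), unexposed knockout (htr), exposed wildtype (WT_V) and unexposed wildtype (WT). The striatal sums of exposed wildtype (1177 to 1330 CPM) lie below those of unexposed wildtype (1864 to 1955 CPM), and the choroid plexus sums of exposed knockout (3453 to 4195 CPM) lie above those of unexposed knockout (2473 to 2604 CPM).

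Knockout was compared with wildtype to ask whether the deletion changed the clock genes. These comparisons also contain the wildtype libraries used in choosing the genes, which can shift their values in either direction. No support is drawn from them. Without exposure, log2 fold changes of the 10 genes lay between -0.12 (Cry1) and 0.15 (Per2), 0 passed edgeR's test, where 0.0389% of tested genes did (0.0278% higher and 0.0111% lower), and 0 had an unadjusted p under 0.05. None of the 10 was free of overlap between unexposed knockout and unexposed wildtype, where 7.39% of tested genes were. Per1 was at 68.5 ± 4.55 CPM in unexposed knockout and 63.7 ± 8.98 CPM in unexposed wildtype (mean ± SD, n = 3 each), a log2 difference of 0.10 with a 95% interval of -0.07 to 0.28. After exposure the values lay between -0.19 (Per2) and 0.11 (Dbp), and again 0 passed, where 0.05% of tested genes did (0.0389% higher and 0.0111% lower), and 0 had an unadjusted p under 0.05.

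Clock and Per2 did not overlap between exposed knockout and exposed wildtype, 2 of 10 genes where 13.2% of tested genes did not overlap. Clock was at 47.7 ± 1.19 CPM in exposed knockout and 50.9 ± 1.07 CPM in exposed wildtype (mean ± SD, n = 3 each; log2 -0.09 ± 0.07 SE, edgeR adjusted p = 0.824). Per2 was at 28.8 ± 1.49 CPM in exposed knockout and 32.8 ± 2.35 CPM in exposed wildtype (n = 3 each; log2 -0.19 ± 0.10 SE, edgeR adjusted p = 0.728). With both libraries lacking Xist left out, Clock was at log2 -0.10 (edgeR adjusted p = 0.721) and Per2 at -0.26 (adjusted p = 0.467). Averaged over both treatments 0 of 10 passed, where 0.05% of tested genes did (0.0278% higher and 0.0222% lower), and the gene with the smallest unadjusted p was Clock (log2 -0.09 ± 0.05 SE, unadjusted p = 0.0888, edgeR adjusted p = 0.9999). DESeq2's Wald test called 0 of the 10 in each of these 3 comparisons. The comparisons share libraries with each other and with those of exposure.

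Whether exposure acted differently in the 2 genotypes was tested as an interaction, which also contains the wildtype libraries used in choosing the genes. Its values lay between -0.33 (Per2) and 0.16 (Dbp) on the log2 scale, 0 of 10 passed edgeR's test, where 0.0% of tested genes did, and DESeq2's Wald test also called 0. Per2 alone had an unadjusted p under 0.05, as did 5.97% of tested genes. For Per1 the effect in the knockout minus that in wildtype was -0.15 ± 0.12 SE (95% interval -0.40 to 0.09, adjusted p = 0.903), for Nr1d1 -0.07 ± 0.10 SE (-0.29 to 0.14) and for Cry1 0.10 ± 0.14 SE (-0.19 to 0.39). These intervals include 0 and also differences as large as the effects in the knockout. The interaction of Per1 was -0.18 and that of Per2 was -0.41 without both libraries lacking Xist.

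How the clock genes varied among themselves was examined across the 12 libraries after the mean of each group was removed. Of 45 pairs, 29 had a positive and 16 a negative Pearson's r on the log2 CPM scale, with a median of 0.15. Per1 and Cry2 had the highest (r = 0.74, rho = 0.53, exact permutation p = 0.116 and 0.191, with libraries permuted within groups), with r = 0.43 without the 2 libraries farthest from the Per1 median. Per2 and Cry2 were next (r = 0.73, rho = 0.66, exact permutation p = 0.0123 and 0.0224; r = 0.71 without the 2 libraries farthest from the Per2 median). Per2 and Per3 had r = 0.71 and rho = 0.72 (exact permutation p = 0.103 and 0.0556; r = 0.30 without the 2 farthest libraries). Per1 and Dbp had r = 0.68 and rho = 0.76 (exact permutation p = 0.0247 and 0.0216; r = 0.83 without the 2 farthest libraries). Per3 and Nr1d1 had the lowest (r = -0.60, rho = -0.52, exact permutation p = 0.0795 and 0.12; r = -0.66 without the 2 farthest libraries). After Benjamini-Hochberg adjustment over the 45 pairs 0 passed, with a smallest adjusted exact permutation p of 0.556 for r and 0.503 for rho. Arntl and Dbp, which peak at opposite times of day in mouse tissues, had r = -0.32 and Arntl and Nr1d1 r = 0.48 over the 12 libraries, neither past the test.

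**Figure D5:**
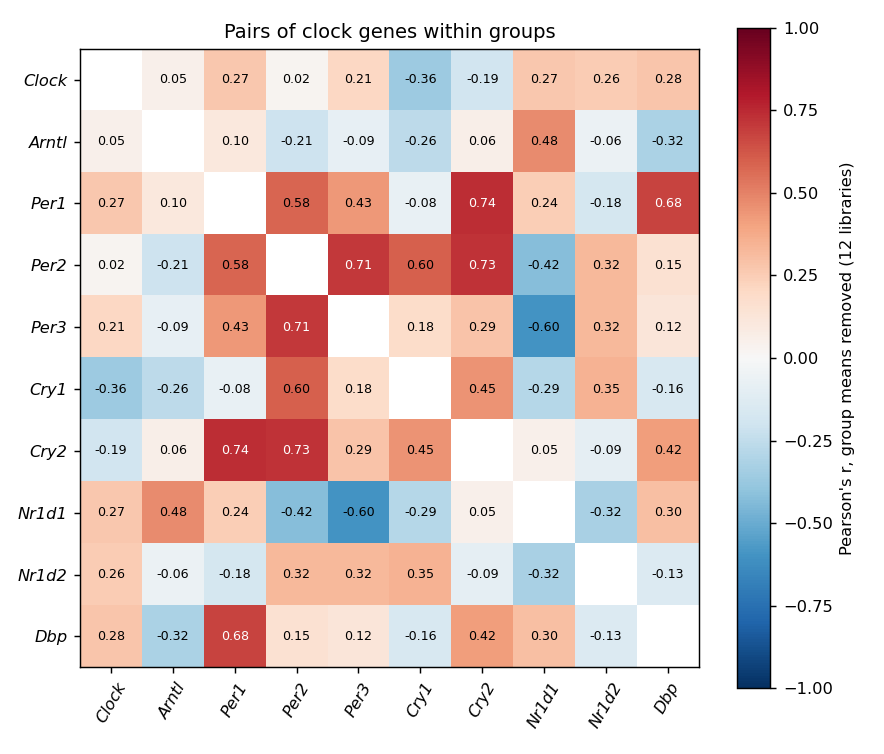
Pearson's r between the log2 CPM of each pair of clock genes over 12 libraries, with group means removed (colour scale -1 to 1; the diagonal is left blank). Per2 is positive with Per1, Per3, Cry1 and Cry2, and the lowest value is -0.60 between Per3 and Nr1d1.

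The genes most like a clock gene were named by Pearson's r of log2 CPM over the 12 libraries, group differences included, among 11257 named genes whose mean reached 5 CPM. For Per1 they were Myh9 (r = 0.96), Gpr26 (0.95), Nptxr (0.93), Mcoln1 (0.93) and Ephb3 (0.92). For Dbp they were Cables1 (r = 0.82), Nubp1 (0.82), Ccdc187 (0.81), Evpl (0.80) and Slc38a10 (0.80). For Arntl they were Rexo4 (r = 0.82), Osbpl1a (0.81), Msl3 (0.80), Fxyd7 (0.78) and Nrgn (0.77). These lists were made for Per1, Dbp and Arntl, and none of the 3 held another clock gene; for Per1 the nearest clock genes were Nr1d1 (r = 0.79) and Cry2 (0.78). These values describe 12 libraries that share groups and scaling, and carry no test.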

How the data were processed

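The authors deposited raw counts per Ensembl gene for 12 libraries in 1 table, all of them whole, with unequal library totals. Per the labels' protocols, column-purified RNA was depleted of ribosomal RNA before an NEB library kit was used. The submitters' processing notes name HISAT2 and GRCm39 (mm39) without versions, and the counting program, annotation and strand setting were not stated. Symbols, exon lengths and overlaps came from GENCODE on GRCm38, which matched 52073 identifiers holding 99.51% of the counts.

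Counts were analysed with R 4.3.3, edgeR 4.0.16, DESeq2 1.42.0 and limma 3.58.1, and Python 3.11.15 (numpy 2.4.6, pandas 2.3.3, scipy 1.17.1, matplotlib 3.10.9). The filter filterByExpr kept 17995 genes, TMM scaled the libraries, and 1 mean for each group was fitted over the 12 with robust quasi-likelihood (common biological coefficient of variation 0.0898). Tests were two-sided at a Benjamini-Hochberg adjusted p of 0.05 over every tested gene. SEs are the log2 fold change divided by the square root of the F statistic. CPM values are TMM-scaled, and log2 CPM used a prior count of 2. The fit was tested on simulated data.

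Members, lists and tests were chosen with earlier results of these data known. All 10 clock genes are named; from other lists, those past the test and the highest by level. Same-numbered libraries of different groups had deviations correlated at -0.0622 to 0.115, not above 0.1 in every pair of a comparison, so the numbers were not used to pair libraries. Libraries of a group differed beyond sampling noise. Other settings were another scaling, other count filters, DESeq2's Wald test, fits of fewer libraries and a replicate block. Leaving out both libraries lacking Xist was extended to the other lists after seeing the data.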

Additional observations from a re-analysis of the deposited data

Results flagged for a closer look

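Per2 is given here because its values after exposure lay on opposite sides of the unexposed mean in the genotypes. The exposed knockout libraries (27.1 to 29.7 CPM) lay below the unexposed knockout mean of 29.9 CPM but within the unexposed range of 25.0 to 32.5 CPM. The exposed wildtype libraries (30.9 to 35.4 CPM) lay above the unexposed wildtype mean of 27.1 CPM. The valproic acid effect in the knockout minus that in wildtype was -0.33 on the log2 scale, and the edgeR interaction test did not pass (adjusted p = 0.833). Per2 did not pass in the knockout (log2 -0.05, adjusted p = 0.861), where its value spanned -0.169 to 0.013 with 1 library left out.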

How the results depend on the processing

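With no count filter, 1 clock gene passed in the knockout (Per1, edgeR adjusted p = 0.0184); the cause was not tested. From the wildtype and averaged counts nothing is read: they were 2 in wildtype with no filter, and 0 to 1 in wildtype and 1 to 3 on average with 1 library left out, against 0 in the knockout. As a description, averaged log2 values over all 18 settings spanned 0.329 to 0.433 for Per1 and 0.194 to 0.26 for Nr1d1. They spanned -0.221 to -0.153 for Nr1d2 and -0.245 to -0.19 for Cry1. Of 70 clock gene values, 26 changed sign in some setting, none of them past the test. Per3 in wildtype was -0.03 without both libraries lacking Xist. With 1 library left out, log2 values spanned -0.095 to 0.145 for Per3 in wildtype; -0.092 to 0.130, -0.083 to 0.051 and -0.041 to 0.070 for Arntl in wildtype, knockout and average; and, in the knockout, -0.169 to 0.013 for Per2, -0.096 to 0.013 for Clock and -0.030 to 0.067 for Dbp.

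Counts over all genes moved more. Exposure in wildtype called 161 genes, 512 with no filter, 333 with DESeq2's Wald test, 40 without the libraries lacking Xist and 14 to 155 with 1 library left out. In the knockout it called 10, against 391, 193, 14 and 2 to 10, and 38 in a fit of those groups alone. On average it called 1078, against 1453, 1258, 298 and 426 to 1193. Knockout after exposure called 9, against 60, 25, 29 and 7 to 86 (86 without exposed wildtype replicate 3), and without exposure 7, against 15, 8, 9 and 6 to 8, and 11 alone. Averaged knockout called 9, against 46, 18, 14 and 7 to 19, and the interaction 0, against 5, 0, 4 and 0 to 1. With the replicate block, the counts were 1 clock gene in wildtype (115 genes in all), 0 in the knockout (6 in all) and 3 on average (876 in all). The spread between only 3 libraries in each group, along with counts of 285 to 2938, limits precision.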

Other observations

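Other cell type lists were read for the averaged effect of exposure in the same libraries, where 2.12% of all tested genes rose and 3.87% fell. Of 10 markers of cortical projection neurons, 3 rose (Slc17a7, Nrn1 and Cux2) and 1 fell (Foxp2), with a median log2 fold change of 0.11. Of 6 microglia markers 1 rose (Csf1r, median 0.12). Without both libraries lacking Xist, Foxp2 still fell (log2 -0.57, edgeR adjusted p = 0.00361), and Slc17a7, Nrn1, Cux2 and Csf1r did not pass (adjusted p = 0.123, 0.0815, 0.125 and 0.185). Among 6 astrocyte markers (median 0.10), 6 oligodendrocyte markers (median -0.03) and 6 endothelial markers (median 0.01), 0 passed edgeR's test. In the average 0 of 6 forebrain and 0 of 2 hindbrain markers passed. Of the 7 suprachiasmatic markers tested, 0 passed and all 7 had negative averaged values (median -0.48), while in wildtype 2 were higher. That median was Prok2, near the floor at a mean of 0.347 CPM. Syt10 and Vipr2, at 2.42 and 1.09 CPM, were at log2 -0.63 and -1.10, and Avp was at -0.58 ± 1.01 SE. Rasl11b, Vip and Grp, at 46.7, 24.25 and 9.90 CPM, were at -0.08, -0.10 and -0.01. With both libraries left out, 6 of those 7 suprachiasmatic values were negative (median -0.41). In that setting 0 of 7 were higher in the knockout (median -0.81) and 4 of 7 in wildtype (median 0.05).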
